A study of Homo sapiens with 6 samples.

Results

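Expression of 40 genes of the cell division cycle was compared between HT29 cells carrying a construct for the laminin α1 chain and HT29 cells carrying a control construct. The genes were taken by name from a list of symbols and fall into 15 genes of DNA replication and the entry into S phase and 25 genes of mitosis. A gene was represented by a probe set that the platform annotation assigns to exactly 1 gene symbol, and 39 of the 40 had such a probe set, among 18417 genes in all. CENPA, the centromeric histone, shared its probe set with SLC35F6 and was kept out of the counts. Of the other 39 genes only BIRC5 had more than 1 probe set, and the brightest was used.

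The series holds 6 arrays, 3 of cells labelled with laminin α1 expression and 3 of cells labelled control, each from its own culture passage after 7 days of growth. HT29 is an established human colorectal adenocarcinoma cell line, and laminin α1 is a chain of laminin, a protein of basement membranes. The labels describe neither the construct, its promoter nor how many clones make up a group. The arrays of a group come from separate passages, and whether they also come from independently made cell populations is not known. Their spread therefore cannot be taken as that between such populations. LAMA1, the gene of the chain, had values of 5.79, 5.72 and 5.71 on the laminin α1 arrays and 5.71, 5.63 and 5.60 on the control arrays, a log2 difference of 0.09 (limma adjusted p = 0.535), and it therefore does not verify the labels. All 11 colon epithelium markers examined were measured above the level filter of 5.50, with a list mean of 9.85 to 9.88 on the laminin α1 arrays and 9.99 to 10.15 on the control arrays. LGALS4, GPA33 and CEACAM5 of these fell. The means of 9 fibroblast markers (5.37 to 5.44 in laminin α1, 5.31 to 5.41 in control) and of 9 endothelial and blood cell markers (5.39 to 5.41 and 5.38 to 5.44) lay near or below that level. Taken singly, 5 of the fibroblast markers and 2 of the endothelial and blood cell markers lay above it. CD68, of the latter, had 7.83, 7.89 and 7.68 in laminin α1 and 7.84, 7.71 and 7.57 in control. The part of cell composition in the results was not tested.

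A dividing cell copies its DNA in S phase and separates the copies in mitosis. E2F transcription factors switch on the replication genes once they are released from the retinoblastoma protein, a release to which cyclin E and its kinase contribute. The MCM helicase is loaded at origins with the help of CDC6 and activated with CDC45 and the GINS complex. Mitotic genes are switched on later by the MuvB complex with MYBL2 and FOXM1, largely through promoter elements called CHR and CCAAT boxes. In colorectal tumours, the sum of these genes is commonly read as a sign of proliferation. All values below are log2 expression levels made by the authors with RMA, which brings the arrays to nearly one distribution and would hide any shift common to the whole transcriptome. In bulk RNA, fewer cycling cells and less RNA per cycling cell cannot be told apart.

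Replication and mitotic genes differed little between the groups, with CCNB1 as the exception. Of 39 genes tested, 1 rose, 0 fell and 38 did not pass the limma test (Benjamini-Hochberg adjusted p under 0.05 over 13812 genes). The background was 5.29% of all genes tested in either direction, 730 genes, with 2.69% higher and 2.59% lower. At an unadjusted p under 0.05 there were 2 of the 39, CCNB1 and MCM3, against 16.7% of all genes. For the same 2 members the values of the groups did not overlap, both being higher in laminin α1, against 21.6% of all genes in either direction and 10.1% in the upward direction.

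The sizes were small as well. The median log2 difference, laminin α1 minus control, was -0.0040 for the 15 replication genes and -0.028 for the 24 mitotic genes, beside -0.0115 for all genes tested. The size without its sign had a median of 0.061 for replication genes and 0.038 for mitotic genes, against 0.076 for all genes. Positive differences were found for 7 replication and 8 mitotic genes. The 95% interval of the difference lay within a 1.5-fold change either way for 37 of the 39 members. CCNB1 and CENPE were the other 2, and the intervals of all 39 lay within a 2-fold change. No member came near the level filter, and the lowest group mean was 8.21.

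**Figure D1:**
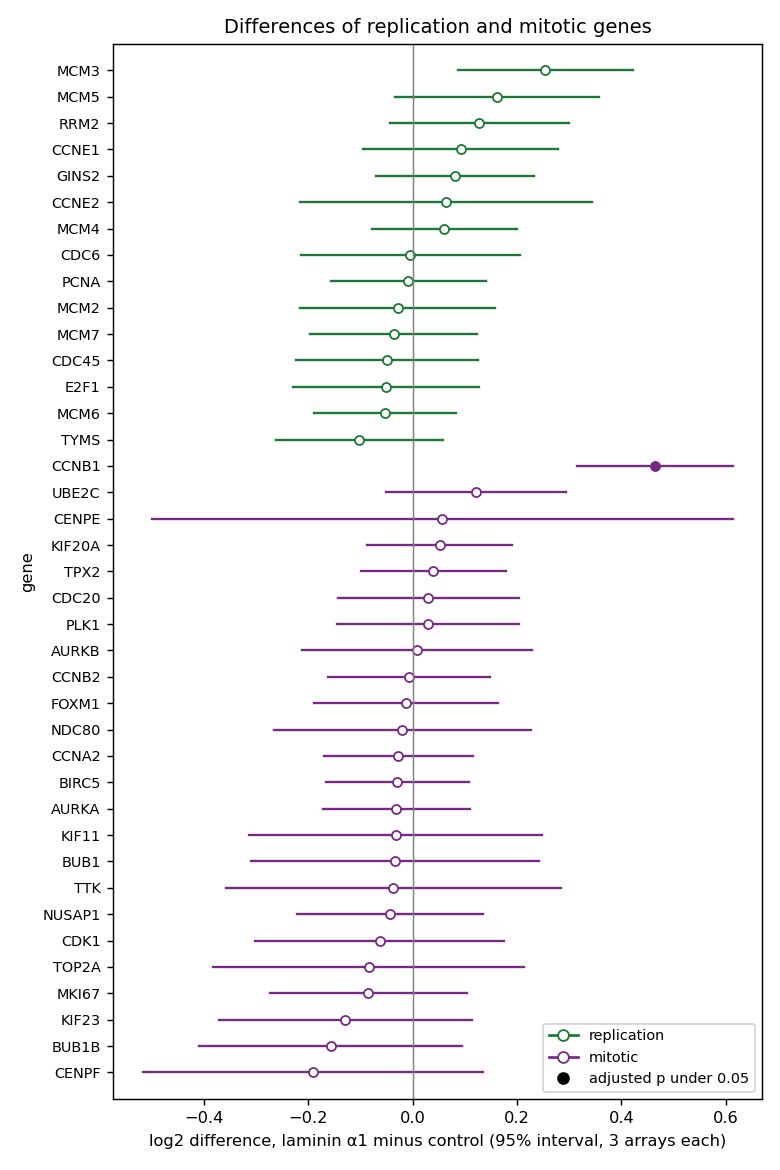
Log2 difference between laminin α1 and control arrays for 15 replication genes and 24 mitotic genes, with the 95% interval of the limma fit (3 arrays per group). CCNB1, at 0.46, is the only filled point, and the intervals of MCM3 and CCNB1 are the only ones that do not reach 0.

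CCNB1 encodes cyclin B1, the partner that activates the kinase CDK1 at the start of mitosis. It had levels of 10.51, 10.46 and 10.39 on the laminin α1 arrays and 9.94, 9.96 and 10.06 on the control arrays. The lowest laminin α1 array thus lay above the highest control array, and the spread within each group was small. The mean was 10.45 ± 0.06 in laminin α1 and 9.99 ± 0.06 in control (SD, n = 3 each), a log2 difference of 0.46 (SE 0.07, 95% interval 0.32 to 0.61) or 1.38-fold, with a limma adjusted p of 0.0025.

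The genes that work with cyclin B1 did not follow it past the threshold. CCNB2, the second B-type cyclin, had 11.61, 11.46 and 11.48 on the laminin α1 arrays and 11.51, 11.59 and 11.47 on the control arrays. The groups overlapped, and the difference was -0.0069 (95% interval -0.16 to 0.15, limma adjusted p = 0.976), an interval that ends below the rise of CCNB1. CDK1, the kinase of both cyclins, had 9.90, 10.11 and 10.21 in laminin α1 and 9.98, 10.10 and 10.33 in control, with a difference of -0.063 (95% interval -0.30 to 0.18). CCNA2, the cyclin of S phase and early mitosis, had a difference of -0.027 (95% interval -0.17 to 0.12). CDC20, the activator that directs the anaphase-promoting complex against B-type cyclins, stood at 0.030 (95% interval -0.14 to 0.20), and UBE2C, the ubiquitin-conjugating enzyme of that complex, at 0.12 (95% interval -0.05 to 0.29). UBE2C had 9.43, 9.30 and 9.19 in laminin α1 and 9.26, 9.16 and 9.13 in control, and the groups overlapped. The difference between the change of CCNB1 and those of its partners was not tested.

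The promoters of these 3 genes are shown to set that of cyclin B1, the gene that rose, beside those of its closest relative and of the kinase they share. The sequences are RefSeq's on GRCh38.p14, from 250 bases before the annotated start to 30 bases after it, with CCNB1 at chr5:69166900-69167179, plus strand, CCNB2 at chr15:59104896-59105175, plus strand, and CDK1, the first of 2 listed starts, at chr10:60778081-60778360, plus strand. Capitals mark a CCAAT box, a CHR or an E2F motif, each on either strand. The CCAAT box was searched by its name's 5 letters. The CHR was searched as TTTGAA. The E2F motif was searched by the spellings TTTCGCGC, which CDK1 and MCM3 hold, TTTGGCGC, which CDC6 holds, and TTTCCCGC, which MCM3 also holds. Other spellings of the CHR and the E2F motif were not searched, so an unmarked stretch may still hold one.
CCNB1: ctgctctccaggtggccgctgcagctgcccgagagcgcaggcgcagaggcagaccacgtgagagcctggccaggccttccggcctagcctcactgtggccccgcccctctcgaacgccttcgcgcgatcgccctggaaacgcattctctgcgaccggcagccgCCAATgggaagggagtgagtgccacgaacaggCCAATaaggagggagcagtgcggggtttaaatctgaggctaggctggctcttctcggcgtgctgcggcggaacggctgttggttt
CCNB2: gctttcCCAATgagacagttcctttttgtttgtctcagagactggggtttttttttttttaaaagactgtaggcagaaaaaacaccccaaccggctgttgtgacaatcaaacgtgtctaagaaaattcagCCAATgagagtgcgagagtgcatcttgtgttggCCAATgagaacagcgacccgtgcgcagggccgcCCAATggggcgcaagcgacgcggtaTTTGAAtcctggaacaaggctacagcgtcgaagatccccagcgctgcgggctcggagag
CDK1: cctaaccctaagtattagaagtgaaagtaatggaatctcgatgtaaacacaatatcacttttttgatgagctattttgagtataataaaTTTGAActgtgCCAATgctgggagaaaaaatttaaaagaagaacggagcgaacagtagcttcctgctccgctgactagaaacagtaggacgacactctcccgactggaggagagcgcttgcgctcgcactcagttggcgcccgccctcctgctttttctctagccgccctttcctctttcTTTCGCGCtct
Positions are those of the first base of a match, counted from the start as base 1 and from -1 before it. CCNB1 held CCAAT boxes at -87 and -55 and none of the CHR or E2F letters searched. CCNB2 held CCAAT boxes at -87 and -54, others further out, and a CHR at -29. CDK1 held a CHR at -161, a CCAAT box at -150 and an E2F motif at 20. These are matches of letters in a window and say nothing of which factor binds.

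CCNB1 lies on chromosome 5, and several genes beside it rose too. Of the 10 nearest tested genes on each side in RefSeq order, 20 in all, 5 rose and 0 fell, and the median difference was 0.29, against -0.0115 over all genes. The 5 were SGTB, NLN, MAST4, CENPH and KGD4. The immediate neighbour CENPH, a subunit of the inner kinetochore, had 8.07, 7.70 and 7.81 on the laminin α1 arrays and 7.16, 7.38 and 7.00 on the control arrays, which do not overlap, and rose 1.60-fold (limma adjusted p = 0.0069). CDK7, the kinase that activates CDK1, is 3 places from CCNB1 and had a difference of 0.32, just short of the threshold (limma adjusted p = 0.0515). From PPWD1 to CDK7 all 13 neighbours had positive differences, between 0.02 and 0.68, whereas the 7 beyond CDK7 lay between -0.20 and 0.09 with 0 past the threshold. This border was seen in the values and was not tested. KIF20A, a kinesin of the midzone and the other member on chromosome 5, had a difference of 0.052 (95% interval -0.09 to 0.19).

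**Figure D2:**
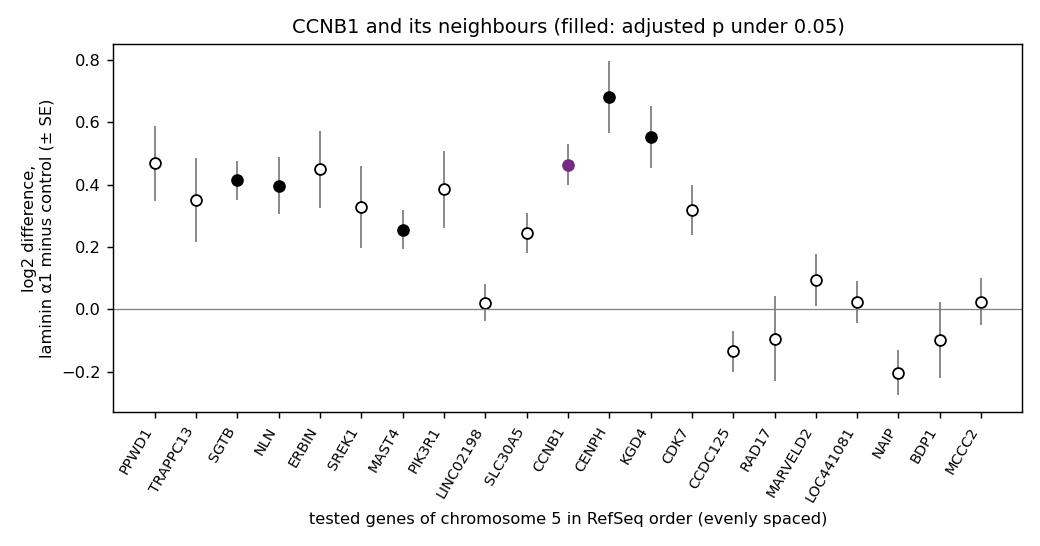
Log2 difference between laminin α1 and control arrays (± SE, 3 arrays per group) for CCNB1 and the 10 nearest tested genes on each side, in RefSeq order on chromosome 5 and evenly spaced. Filled points have an adjusted p under 0.05. The differences are positive from PPWD1 to CDK7, with CCNB1 at 0.46 and CENPH at 0.68, and lie around 0 beyond CDK7.

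The remaining mitotic genes showed no difference past the threshold, and each had a wider range within at least 1 group than the difference between the groups. MKI67, the antigen by which proliferating cells are stained, had 10.82, 10.81 and 11.10 on the laminin α1 arrays and 11.00, 11.01 and 10.99 on the control arrays. The control arrays were nearly equal, and laminin α1 arrays lay on both sides of them, with a difference of -0.085 (95% interval -0.27 to 0.10). TOP2A, the topoisomerase that untangles sister chromatids, had 10.69, 10.91 and 11.22 in laminin α1 and 10.89, 10.94 and 11.24 in control. The highest arrays of the groups were nearly equal, the lowest was a laminin α1 array, and the groups overlapped. FOXM1, the transcription factor of mitotic genes, had 10.72, 10.63 and 10.48 in laminin α1 and 10.69, 10.62 and 10.55 in control, with a difference of -0.013 (95% interval -0.19 to 0.16).

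The mitotic kinases had differences near 0. PLK1, which acts at centrosomes and kinetochores, had 11.69, 11.59 and 11.52 in laminin α1 and 11.68, 11.58 and 11.46 in control, so that the arrays of the groups nearly coincided. AURKA, the kinase of the spindle poles, had 10.77, 10.81 and 10.73 in laminin α1 and 10.74, 10.84 and 10.83 in control, with a difference of -0.031 (95% interval -0.17 to 0.11). AURKB, the kinase of the chromosomal passenger complex, differed by 0.0079 and its partner BIRC5, or survivin, by -0.029. The second probe set of BIRC5 was near the level filter, at 5.61, 5.60 and 5.39 in laminin α1 and 5.43, 5.50 and 5.61 in control. TPX2, which activates AURKA on the spindle, differed by 0.040.

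The lowest differences among the mitotic genes were those of CENPF, BUB1B and KIF23, and they did not pass. CENPF, a large kinetochore protein, had 9.82, 10.03 and 10.44 on the laminin α1 arrays and 10.15, 10.22 and 10.49 on the control arrays. The groups overlapped, and the difference of -0.19 had a 95% interval from -0.52 to 0.14. BUB1B, or BubR1, of the spindle checkpoint had 10.14, 10.40 and 10.63 in laminin α1 and 10.49, 10.50 and 10.65 in control, a difference of -0.16 (95% interval -0.41 to 0.10). KIF23, a kinesin needed for cytokinesis, had 9.98, 10.01 and 10.38 in laminin α1 and 10.15, 10.24 and 10.37 in control, a difference of -0.13 (95% interval -0.37 to 0.11). For CENPF, BUB1B and KIF23 alike, only the highest laminin α1 array reached or exceeded the range of the control arrays. BUB1, TTK, NDC80, KIF11 and NUSAP1, which act in the checkpoint, the kinetochore and the spindle, had differences between -0.043 and -0.0198. CENPE, the kinesin that moves chromosomes to the spindle equator, was the least certain member, with 7.95, 8.16 and 8.70 in laminin α1, 7.66, 8.25 and 8.72 in control and an interval from -0.50 to 0.61. The probe set that CENPA shares with SLC35F6 had 9.50, 9.35 and 9.30 in laminin α1 and 9.64, 9.44 and 9.41 in control, which overlap (limma adjusted p = 0.710 over all probe sets).

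Among the replication genes 0 of 15 passed, against the background of 5.29%, and 7 differences were positive. MCM3, a subunit of the MCM helicase, came closest, with 10.08, 9.98 and 9.84 on the laminin α1 arrays and 9.74, 9.71 and 9.68 on the control arrays. All laminin α1 arrays were above all control arrays, and the difference of 0.25 (SE 0.07, 95% interval 0.09 to 0.42) or 1.19-fold had a limma adjusted p of 0.0932. It passed without laminin α1 replicate 3 (limma adjusted p = 0.0238), with the replicate number as a block (0.0295) and with array weights (0.00058). Of its 20 nearest tested genes on chromosome 6, counted after its value was seen, TNFRSF21, C6orf141 and LRRC1 rose and FAM83B fell, with a median difference of 0.062 over the 20.

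The other MCM subunits, which form a ring of 6 with MCM3, did not share that separation. MCM5 had 9.27, 9.09 and 8.97 in laminin α1 and 9.05, 8.85 and 8.94 in control, which overlap, and a difference of 0.16 (95% interval -0.03 to 0.36). MCM2 had 9.89, 9.74 and 9.61 in laminin α1 and 9.86, 9.76 and 9.71 in control, a difference of -0.028. MCM4, MCM6 and MCM7 differed by 0.061, -0.053 and -0.036, and the ends of their intervals allowed at most a 1.15-fold change. The change of MCM3 relative to the other subunits was not tested.

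The factors that load and start the helicase also had small differences. CDC6, the loading factor, had 10.03, 10.01 and 10.11 on the laminin α1 arrays and 9.84, 10.14 and 10.19 on the control arrays, so the control arrays enclosed the laminin α1 arrays, and the difference was -0.0040 (95% interval -0.21 to 0.21). CDC45 and the GINS subunit GINS2, which complete the active helicase, differed by -0.0495 and 0.081. PCNA, the sliding clamp of DNA polymerases, had 10.47, 10.49 and 10.45 in laminin α1 and 10.39, 10.50 and 10.55 in control, a difference of -0.0083 (95% interval -0.16 to 0.14).

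Neither enzyme of nucleotide supply passed the threshold. RRM2, the small subunit of ribonucleotide reductase, had 9.70, 9.60 and 9.56 in laminin α1 and 9.48, 9.61 and 9.39 in control, a difference of 0.13 (95% interval -0.04 to 0.30). TYMS, or thymidylate synthase, had 10.69, 10.62 and 10.49 in laminin α1 and 10.73, 10.71 and 10.65 in control, a difference of -0.10 (95% interval -0.26 to 0.06). For both genes the groups overlapped.

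The regulators of S phase entry did not separate the groups either. CCNE1, or cyclin E1, had 8.73, 8.45 and 8.46 in laminin α1 and 8.47, 8.46 and 8.44 in control, where a single laminin α1 array stood above the other 5. CCNE2, or cyclin E2, had a difference of 0.064 (95% interval -0.22 to 0.34). E2F1, the transcription factor of replication genes, had 9.36, 9.17 and 9.12 in laminin α1 and 9.35, 9.24 and 9.20 in control, a difference of -0.051 (95% interval -0.23 to 0.13).

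The promoters of MCM3 and CDC6 are shown as those of the replication gene nearest to the threshold and of a gene of the same pathway with a difference near 0. They are RefSeq's on GRCh38.p14 over the same span, at chr6:52284713-52284992, minus strand, and at chr17:40287629-40287908, plus strand, and the capitals mark the same motifs.
MCM3: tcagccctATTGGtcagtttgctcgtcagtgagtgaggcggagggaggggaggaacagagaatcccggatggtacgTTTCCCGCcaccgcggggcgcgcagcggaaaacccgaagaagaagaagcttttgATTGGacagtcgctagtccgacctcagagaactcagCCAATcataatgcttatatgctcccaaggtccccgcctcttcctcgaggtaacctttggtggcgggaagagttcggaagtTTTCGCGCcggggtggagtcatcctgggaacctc
CDC6: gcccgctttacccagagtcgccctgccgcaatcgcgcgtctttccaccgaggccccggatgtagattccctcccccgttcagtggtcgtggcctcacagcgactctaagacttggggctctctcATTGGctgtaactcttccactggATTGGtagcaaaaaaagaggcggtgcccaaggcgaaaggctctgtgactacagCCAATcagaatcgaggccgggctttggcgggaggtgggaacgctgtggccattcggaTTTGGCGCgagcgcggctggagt
Both hold an E2F motif next to the start, at -4 in MCM3 and at base 8 in CDC6, so these letters do not set the genes apart.

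The motifs were spread unevenly over replication and mitotic genes. RefSeq windows from 250 bases before to 50 bases after the start were found for 31 of the 40 genes, not for MCM4, MCM5, CCNE2, AURKA, TPX2, FOXM1, BIRC5, UBE2C and TTK. At least 1 of the 3 E2F spellings stood in the windows of 9 of 12 replication genes and 3 of 19 mitotic genes, against 3.3% of 27305 genes with a window. TTTGAA, on either strand, stood in those of 0 of 12 replication genes and 13 of 19 mitotic genes, against 18.2% of all genes. A CCAAT box was found for 9 of 12 replication and 16 of 19 mitotic genes, against 39.7% of all. Matches of different motifs may share end letters, but no spelling contains another. CCNB1, BUB1, CENPE, CCNA2, AURKB and KIF20A were the mitotic genes without TTTGAA. Since the CHR was searched in this spelling only, they may hold one in other letters. Whether the lack of TTTGAA bears on the rise of CCNB1 was not tested.

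The spread between arrays of a group was large beside most differences. For 37 of 39 genes, or 94.9%, the range within at least 1 group exceeded the difference between the group means, with MCM3 and CCNB1 as the exceptions, against 86.3% of all genes tested. The residual SD had a median of 0.101 over members and 0.0914 over all genes tested, and it was above 0.0914 for 17 of 24 mitotic and 8 of 15 replication genes. It ran from 0.035 for BIRC5 to 0.46 for CENPE among mitotic genes and from 0.032 for MCM6 to 0.21 for CCNE2 among replication genes.

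Much of this spread recurred in both groups. Among the members, 14 were highest on replicate 3 of both the laminin α1 and the control arrays, 11 of them mitotic, and another 14 were highest on replicate 1 of both, 9 of them replication genes. CDK1, TOP2A, BUB1, BUB1B, CENPE, CENPF, KIF11, KIF23, NUSAP1, TTK and NDC80 were the mitotic genes of the first kind, and MCM2, MCM3, MCM4, MCM5, MCM7, TYMS, CCNE1, E2F1 and CDC45 the replication genes of the second. AURKB, PLK1, FOXM1, BIRC5 and UBE2C were mitotic genes that went with the replication genes. Over all genes tested, 18.2% were highest on replicate 3 of both groups and 27.9% on replicate 1 of both. Between replicates 3 and 1, CENPE differed by 0.75 in laminin α1 and 1.05 in control, and AURKB by -0.27 in laminin α1 and -0.31 in control. Across the 39 genes, this difference in laminin α1 and that in control had a Pearson correlation of 0.83 and a Spearman correlation of 0.86, against 0.51 and 0.45 across all 13812 genes, where genes share the arrays and are not independent replicates. The labels do not say that equal numbers mark a shared culture or day, and the cause was not tested.

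**Figure D3:**
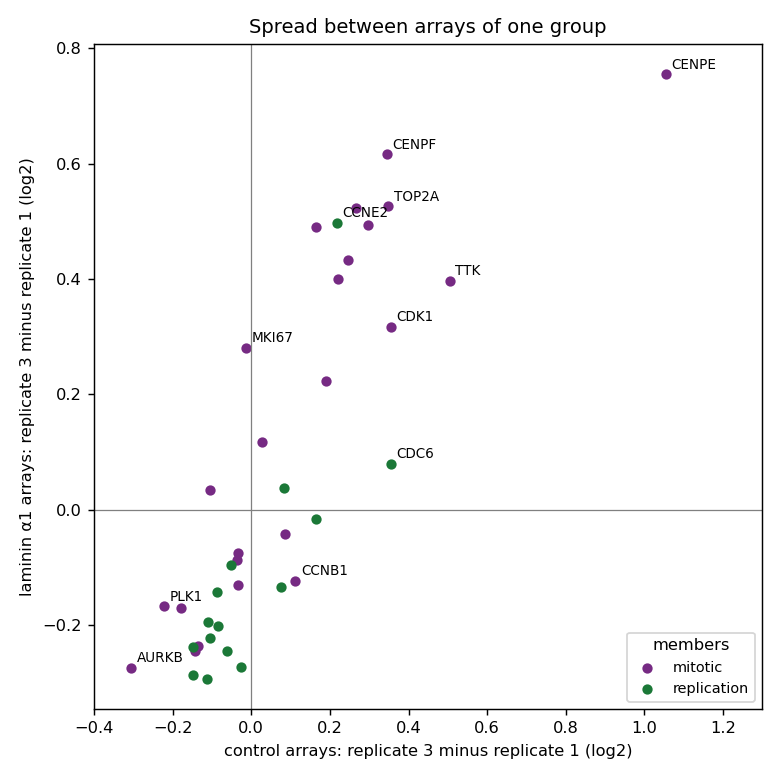
Log2 level on replicate 3 minus replicate 1 in the laminin α1 arrays (vertical) against the same in the control arrays (horizontal), a point for each of the 39 genes. Of 24 mitotic genes, 12 lie above 0 on both axes, with CENPE farthest out at 0.75 and 1.05, and of 15 replication genes 10 lie below 0 on both.

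As group means relative to the control mean of each gene, the 24 mitotic genes stood at -0.079, -0.033 and 0.090 on laminin α1 replicates 1, 2 and 3 and at -0.057, -0.011 and 0.068 on the control replicates. The 15 replication genes stood at 0.10, 0.013 and -0.013 on the laminin α1 replicates and at 0.0053, -0.0075 and 0.0022 on the control replicates. The groups overlapped for both, and on laminin α1 replicate 1 the 2 sets lay farthest apart.

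**Figure D4:**
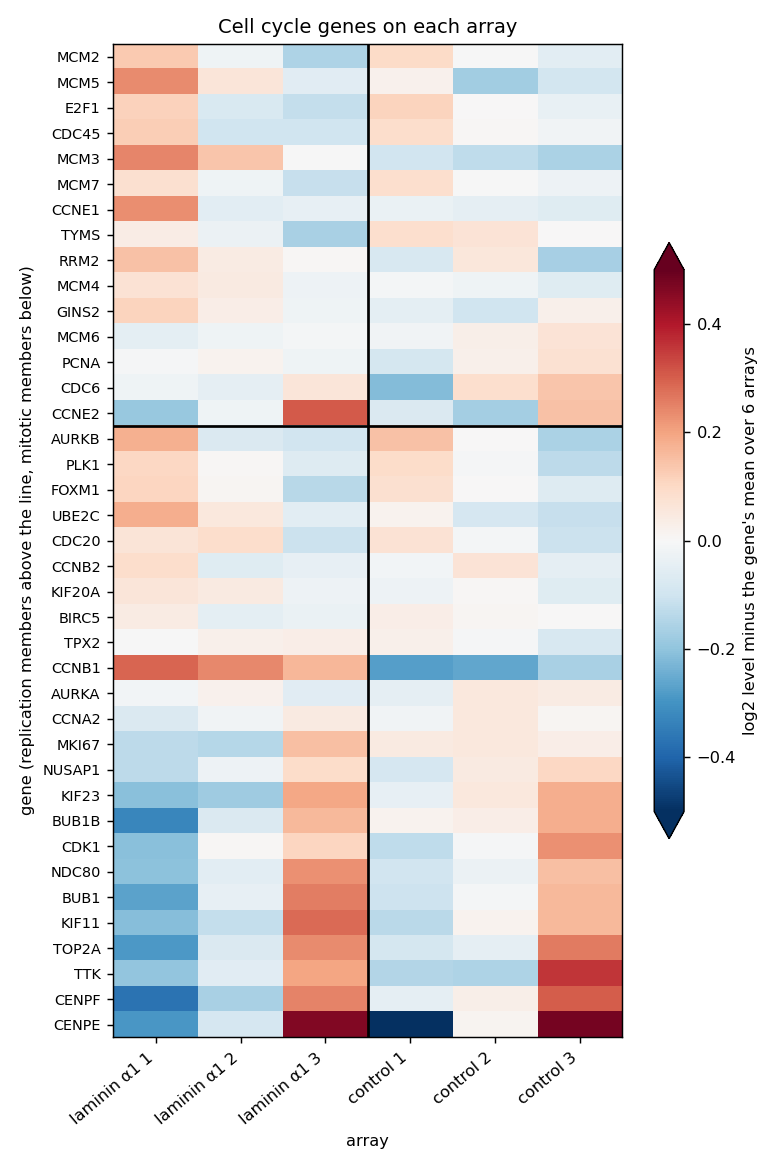
Log2 level of each of 39 genes on each array minus the gene's mean over the 6 arrays, with the laminin α1 arrays left of the control arrays, replication genes above the horizontal line and mitotic genes below it. CCNB1 separates the 2 groups of arrays, whereas 14 genes are highest on replicate 3 of both groups and 14 on replicate 1 of both. Colours are capped at 0.5 either way.

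Other genes of the cell cycle were taken from 12 lists of the same machinery. They named 249 genes, and the array carried 238 of them, with 237 above the level filter. Of these, 6 rose and 2 fell, or 3.38%, against the background of 5.29%. Their median difference was -0.0201. By list, the median ran from -0.128 for replication checkpoint and recombination genes to 0.103 for replication-dependent histone genes. Origin licensing and firing genes (21 tested), nucleotide synthesis genes (15), cyclin-dependent kinases with their cyclins and inhibitors (23), spindle motors and cytokinesis genes (25), condensin and cohesin (13), and replication checkpoint and recombination genes (18) had 0 past the threshold each. The genes nearest to it in those lists were GINS4 at -0.21 (limma adjusted p = 0.102), IMPDH2 at 0.23 (0.0691), CDK7 as above, KIFC1 at 0.27 (0.147), STAG2 at -0.26 (0.384) and RAD1 at 0.24 (0.0885).

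The 8 that passed belonged to 6 lists. RFC3, a subunit of the clamp loader that places PCNA on DNA, had 10.18, 10.29 and 10.37 on the laminin α1 arrays and 9.22, 9.39 and 9.59 on the control arrays, and rose 1.84-fold (limma adjusted p = 0.00048), as 1 of 25 polymerase and fork genes. SKA3, which couples kinetochores to microtubules, had 10.65, 10.76 and 10.79 in laminin α1 and 9.93, 10.13 and 10.18 in control and rose 1.57-fold (limma adjusted p = 0.000976), and with CENPH it made 2 of 29 kinetochore genes. In neither gene did the groups overlap. CDC16, a subunit of the anaphase-promoting complex, rose 1.21-fold (limma adjusted p = 0.0309) as 1 of 14 genes of that complex and its regulators. Its call was lost without any single control array, without laminin α1 replicate 2 (limma adjusted p = 0.0867 to 0.164) and with all probe sets tested separately (0.074). H2BC12, a histone H2B gene rose 1.31-fold as 1 of 23 histone genes. Its value is uncertain, since transcripts of its near-identical copies may bind these probes.

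TFDP2, a partner with which E2F proteins bind DNA, had 8.34, 8.32 and 8.27 in laminin α1 and 9.08, 9.07 and 9.08 in control. It fell 1.70-fold (limma adjusted p = 4.66e-05), as 1 of 19 genes of the RB, E2F and MuvB machinery, and the arrays within each group were nearly equal. TFDP1, another E2F partner, did not pass, with means of 12.32 in laminin α1 and 12.18 in control (limma adjusted p = 0.346). Of 13 p53 target and growth arrest genes, PLK2, a kinase induced by stress, rose 1.35-fold and TP53INP1 fell 1.43-fold.

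The cell cycle genes that rose were concentrated on 2 chromosomes, a pattern seen after their values were known. Together with CCNB1 they were 7. Of these, CCNB1, CENPH and PLK2 lie on chromosome 5 and RFC3, SKA3 and CDC16 on chromosome 13, with H2BC12 on chromosome 6 as the remaining one. The call of CDC16 among them is the unstable one described above. Of the 276 members and listed genes tested, 20 lie on these chromosomes. On chromosome 13, 63 of 231 tested genes rose, or 27.27%, and 0 fell, with a median difference of 0.16. On chromosome 5, 52 of 563 rose and 21 fell, with a median difference of -0.0103. On all other chromosomes together 1.98% of genes rose. The highest share among them was on chromosome 6, which holds H2BC12 and MCM3. There 38 of 669 genes rose, or 5.68%, and 18 fell, with a median difference of 0.0415. Among the 20 nearest tested genes, 16 rose beside SKA3, 13 beside RFC3 and 8 beside PLK2, and 0 fell beside any of them. CDC16 had 11 such neighbours, of which 1, RASA3, rose. Beside H2BC12, 0 of 20 passed. Of the genes that fell, TFDP2 had 2 lower neighbours and TP53INP1 had 1, with 0 higher beside either. Positive differences numbered 4 of 20 beside TFDP2 and 2 of 20 beside TP53INP1. None of the 40 genes with a tested probe set lies on chromosome 13. Leaving out the genes of chromosomes 5 and 13 takes away CCNB1 and the listed genes named on them by construction. With that, 0 members and 3 genes of the 12 lists passed, a count that does not test the pattern. Whether DNA copy number differs between the cells was not measured on these arrays.

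**Figure D5:**
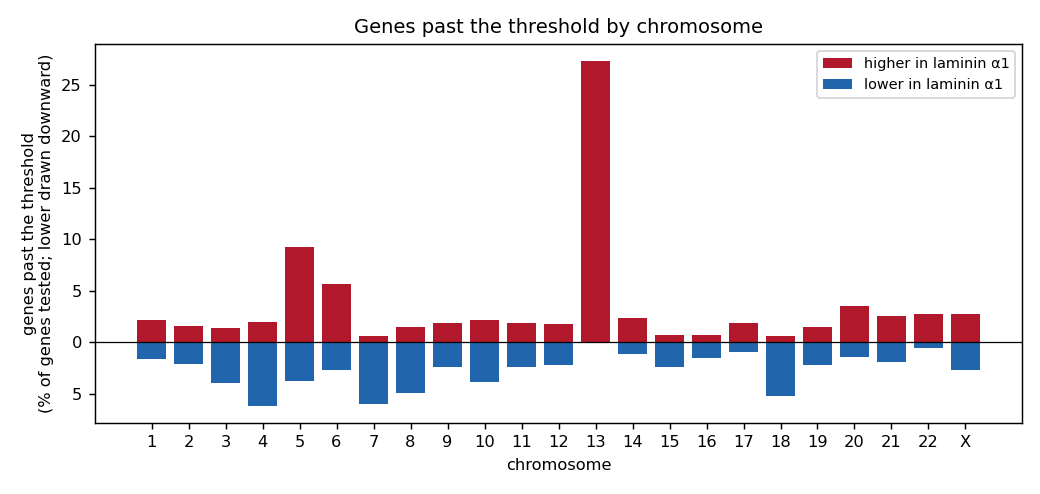
Share of tested genes on each chromosome that passed the threshold, drawn upward where higher in laminin α1 and downward where lower. Chromosome 13 stands at 27.27% higher and 0 lower, and chromosome 5, which holds CCNB1, CENPH and PLK2, is next.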

How the data were processed

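Gene expression was measured on 6 Affymetrix arrays of HT29 cells, 3 labelled laminin α1 expression and 3 labelled control, each from its own culture passage per the series' design text. The deposited values are log2 levels per probe set, made by the authors by RMA with Affymetrix Expression Console 1.1 (per the submitters' processing notes). That method subtracts background, equalises the distributions of arrays by quantiles and combines the probes of a set. The values were used without further normalization. They ranged from 2.40 to 13.89 with array medians of 6.45 to 6.49. Signal over background is not given in the sources used here, and the number of arrays limits the precision. Over the genes tested, the log2 differences had a median SE of 0.0754.

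The platform annotation gave exactly 1 symbol for 19460 of 33297 probe sets, and the brightest probe set of each of 18417 genes was kept. Genes with a mean above the 25th percentile, 5.50, were tested, 13812 in all. Laminin α1 minus control was fitted without covariates with limma 3.58.1 (lmFit, then eBayes; R 4.3.3), with Benjamini-Hochberg adjustment over all genes tested and a threshold of 0.05. A run of the fit on simulated data with planted changes drew independent noise for each gene. It therefore cannot tell how the fit behaves where genes share deviations between arrays. An exact permutation test of 3 against 3 arrays cannot give a p below 0.1 and was not used.

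The members and the lists of related genes were chosen with earlier results of these data known. Values on every array are given for members past the threshold, for the 4 members of each set nearest to it and for 12 members picked for their role, and CENPE, with the shared probe set of CENPA, was added after its values were seen. Of each related list the genes past the threshold are named, or the nearest. The alternatives were other level filters, other treatments of probe sets, centring, a further quantile step, each array left out, eBayes with a trend and robust variances, weights per array, a block for the replicate number, a threshold of 0.01, and, added after the data were seen, leaving out chromosomes 5 and 13. Gene order, chromosomes and promoters came from RefSeq on GRCh38.p14, used for order and sequence only, and the build of the array design is not given in the sources used here.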

Additional observations from a re-analysis of the deposited data

How the results depend on the processing

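The call of CCNB1 held in the 16 alternatives that kept it, with differences between 0.44 and 0.50 and limma adjusted p up to 0.0215, the highest without control replicate 2. Of 661 recomputed member differences, 8 passed where they had not and 0 changed sign past the threshold. For all genes past the threshold the reported count was 730. Array weights gave 4691 genes in all, 7 members (3 replication, 4 mitotic) and 83 genes of the related lists. That fit stopped before it converged and gave control replicate 2 a weight of 10.69 and laminin α1 replicate 1 a weight of 0.317. Under it MCM3, MCM5, GINS2 and UBE2C passed as higher and MKI67 and KIF23 as lower. The replicate number as a block gave 1596 genes, 2 members (1 replication, MCM3 at limma adjusted p = 0.0295) and 20 genes of the related lists. The deviations of same-numbered arrays correlated at 0.39, 0.022 and 0.53, against -0.44 and -0.49 between replicates 1 and 3. Since 1 of the 3 was not over 0.1, the numbers were not taken as pairs, and whether arrays of one number share a culture or day was not tested. Laminin α1 replicate 2 did not correlate best with its own number. Leaving out 1 array in turn gave between 407 and 1214 genes, 1 to 2 members, 0 to 1 replication members and 7 to 13 genes of the related lists, the highest values all without laminin α1 replicate 3, where MCM3 passed. Without control replicate 2 there were 407 such genes, and the omission of laminin α1 replicate 2 left 429. A threshold of 0.01 left 393 genes. Without chromosomes 5 and 13, which removes CCNB1, 0 members (0 mitotic) and 3 genes of the related lists passed. The median difference of mitotic members lay at -0.0786 without laminin α1 replicate 3 and at 0.0088 without laminin α1 replicate 1, and the median difference of replication members lay between -0.001 and 0.0456 with 1 array left out, highest without control replicate 3. Both medians thus have no settled sign, although no move exceeded the SD of the array medians within groups (0.0551 for replication, 0.0771 for mitotic members). Of the 8 related genes, CDC16 alone lost its call where it was tested, in 6 of 16 alternatives. TP53INP1 was not among the genes tested with the level filter at the 50th percentile, where 1 p53 target and growth arrest gene passed. Where no cause is named here, the cause was not tested. With 3 arrays per group, changes smaller than the intervals given allow were not detectable.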
